A study of Rattus norvegicus with 6 samples.

Results

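The genes described here are the potassium channel genes of the rat heart-derived line H9c2, taken as the rows of the gene count table whose symbol starts with Kcn. The table holds 16319 gene rows, of which 59 are Kcn genes, and 16 of these reached at least 1 CPM (the usual unit of counts scaled to library size) in at least 3 of the 6 libraries and form the described set, 15 of them gene by gene. Of the 16 genes, 13 reached that level in every library. The other genes passed through 1 group alone, Kcnf1 through the knockout libraries and Kcnh3 and Kcnn4 through the wild-type libraries, so these 3 had to differ between the groups and their difference is no evidence about the family. At the margin of this rule, the third-highest CPM was 2.65 for Kcnf1 and 3.02 for Kcnt1 just inside it, and 0.819 for Kcne2, 0.802 for Kcnj4 and 0.794 for Kcnh6 just outside it.

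H9c2 is a myoblast line derived from embryonic rat heart, and RNA-seq was made from 3 wild-type (WT) libraries and 3 libraries of Nono-KO cells. Nono encodes a nuclear RNA- and DNA-binding protein, and it was disrupted with CRISPR-Cas9 delivered on a PX459 plasmid, with a guide against exon 6, puromycin selection and, in the scheme of the study, expansion of a single clone. A difference between the groups therefore cannot be told apart from a difference between that clone and the WT cells that has nothing to do with Nono, and the p-values below measure the spread between libraries, not between clones. No treatment, time or dose differed between the groups in the labels.

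Potassium channels let potassium leave or enter the cell down its electrochemical gradient, and they set the resting potential and repolarise the membrane after depolarisation. Voltage-gated (Kv) channels open on depolarisation, inward rectifiers pass current best near rest, calcium- and sodium-activated channels open when those ions rise inside the cell, and K2P channels carry background leak. In heart muscle they end the action potential, and in myoblasts hyperpolarisation through potassium channels accompanies the step to fusion.

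Library totals ran from 17612958 to 19253858 counts, so that 1 CPM stood for 17.1 to 20.1 counts. Counts of Nono itself were 7329, 5884 and 5519 in WT replicates 1 to 3 against 109, 94 and 96 in the knockout replicates, a log2 fold change of -5.89. The 59 Kcn rows together took 0.0214% to 0.0231% of the counts of a WT library. In a Nono-KO library they took 0.0263% to 0.0267%. Much of this difference lay in 1 gene, Kcnip3, with 2315 counts over the WT libraries and 4419 over the Nono-KO libraries. No change of the family is read from these shares. The H9c2 label was checked against lists of cell type markers. Of 11 cardiomyocyte markers, 8 stayed under 1 CPM in every library, Myh6, Nppa, Myl7 and Ryr2 among them, while Tnnt2, Nkx2-5 and Gata4 were present. The summed level of the skeletal myoblast markers was 572 to 752 CPM in WT and 886 to 987 CPM in Nono-KO libraries, with Myog, a late myogenic factor, at 6.50 and 106 CPM. The summed cardiomyocyte markers were at 48.7 to 127 and 172 to 199 CPM, the smooth muscle markers at 6765 to 7628 and 14629 to 15710 CPM, and the fibroblast markers at 34210 to 41827 and 25222 to 30093 CPM. The neuron markers summed to 3.89 to 4.87 CPM in WT and 7.68 to 8.84 CPM in Nono-KO libraries (Tubb3 rose from 2.55 to 7.08 CPM, Map2 fell from 1.64 to 0.723 CPM, and Rbfox3 had at most 8 counts), and the endothelial markers to 2.94 to 4.45 and 0.70 to 1.22 CPM. A few abundant genes carried these sums, and the lists were mixed. Of the tested markers, 4 of 6 skeletal myoblast genes were higher and none was lower, 1 of 4 cardiomyocyte genes was higher (Nkx2-5, while Tnnt2 did not pass), and 5 of 7 smooth muscle genes were higher and 1, Myocd, was lower. Of 4 fibroblast genes 3 were lower and 1, Thy1, was higher, 1 of 2 neuron genes went each way, and Vwf, the 1 endothelial gene tested, was lower. The part of these markers in the channel results was not tested. In bulk RNA, fewer cells of a type and less RNA per cell cannot be told apart.

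Of the 16 genes, 7 were higher and 6 were lower in Nono-KO cells at an adjusted p under 0.05 in edgeR's quasi-likelihood test, adjusted over the 12028 genes tested, and 3 did not pass. Among all tested genes 34.2% were higher, 38.1% were lower and 72.2% were called in either direction, so calls were common throughout the table, and nothing particular to potassium channels is read from these counts, which include the 3 genes that had to differ. At the stricter thresholds that the study used, an adjusted p under 0.01 with an absolute log2 fold change above 1, 5 of the 16 were higher against a background of 10.8%, and 3 were lower against 18.7%. The libraries of the groups did not overlap for 13 of the 16 genes, and for 75.1% of all genes tested. The median log2 fold change was 0.24 over the 16 genes and -0.05 over all tested genes. The stricter counts, the count without overlap and this median also include the 3 genes that had to differ. Among the stricter calls, Kcnf1 was higher, and Kcnh3 and Kcnn4 were lower. Nothing particular to potassium channels is read from these values either. Within the Kv pore class, genes present in every library included higher and lower members, such as Kcnh2 and Kcnh1.

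**Figure D1:**
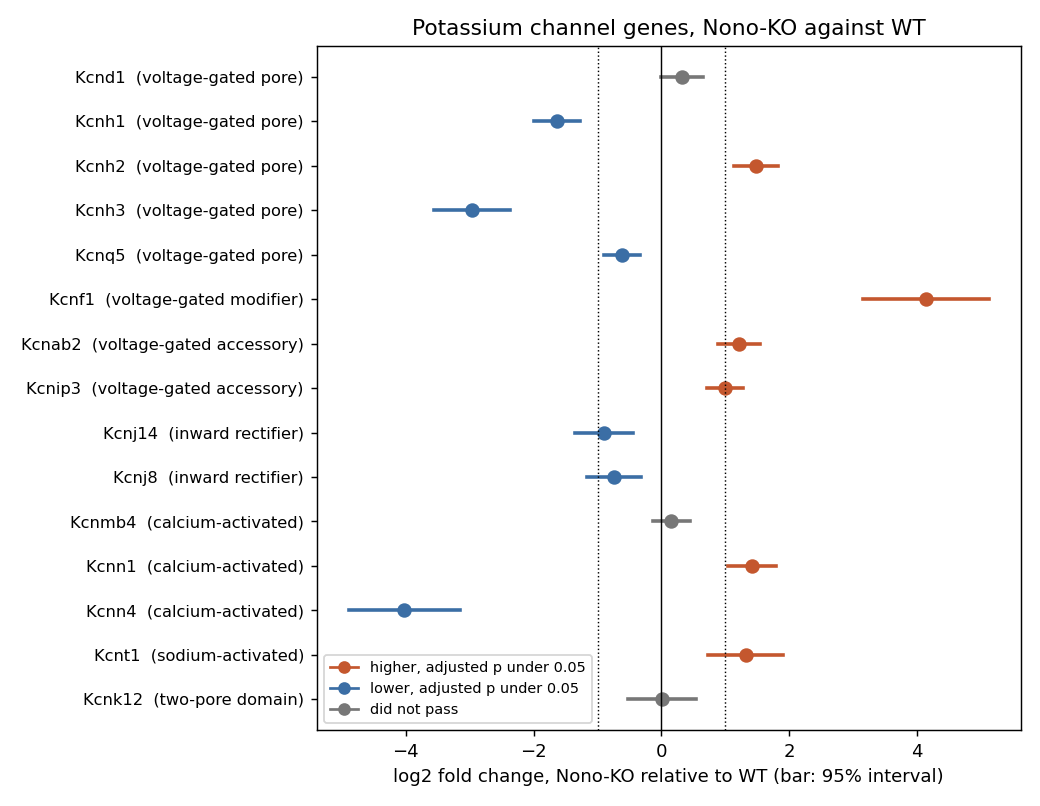
Log2 fold change of 15 of the 16 potassium channel genes, Nono-KO over WT, grouped by channel class. Points are edgeR estimates, bars are 95% confidence intervals, dotted lines stand at -1 and 1, and colour marks a call at an adjusted p under 0.05. Kcnf1 at 4.14 and Kcnn4 at -4.03 lie farthest from 0, and both had to differ because they met the level rule through 1 group alone. The intervals of Kcnd1, Kcnmb4 and Kcnk12 reach or cross 0.

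The Kv class was the largest, with 21 rows for pore-forming subunits, of which 6 were described: 2 were higher, 3 were lower and 1 did not pass. The 3 lower genes include Kcnh3, which had to differ. Of all tested genes 34.2% were higher and 38.1% lower. The EAG-type genes of the Kcnh family differed in direction among themselves. Kcnh2, which encodes the ERG channel that carries the rapid delayed rectifier current of heart muscle, stood at 6.72, 4.71 and 6.68 CPM in WT replicates 1 to 3 and at 18.0, 16.4 and 16.2 CPM in Nono-KO replicates 1 to 3. Every Nono-KO library was above every WT library. Kcnh2 rose from 6.03 ± 1.15 to 16.9 ± 1.01 CPM (SD, n = 3 each), a log2 fold change of 1.48 with a standard error (SE) of 0.16 (edgeR adjusted p = 7.47e-06).

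Kcnh1 encodes the EAG channel, a voltage-gated channel known from brain and from fusing myoblasts. It was at 26.8, 20.9 and 23.6 CPM in the WT libraries and at 7.60, 6.07 and 9.32 CPM in the Nono-KO libraries. No library of either group came near the other group. Kcnh1 fell by 1.63 on the log2 scale (SE 0.17, adjusted p = 4.68e-06), which is 3.10-fold lower. CPM is not scaled to transcript length, so the level of 1 gene is not set against that of another here. Kcnh3, an ELK-type channel gene mainly of the forebrain, had 71, 61 and 68 counts in WT replicates and 9, 8 and 7 counts in Nono-KO libraries, or 3.53 ± 0.26 and 0.447 ± 0.078 CPM. It was under 1 CPM in every Nono-KO library, and its fitted log2 fold change was -2.97 (SE 0.27, adjusted p = 2.08e-06). The fall of Kcnh3 was fixed by the level rule, which it met through the WT libraries alone. Kcnh3 overlaps Mcrs1 in the RefSeq annotation, and Mcrs1 had 79.6 CPM in WT and 85.6 CPM in Nono-KO cells, with a log2 fold change of 0.11 that did not pass the test (adjusted p = 0.367).

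Kcnq5 encodes a channel of the slowly opening, non-inactivating M-current type that is also present in smooth and skeletal muscle. Its level was 24.6, 29.8 and 33.4 CPM in WT and 18.4, 19.0 and 19.8 CPM in Nono-KO libraries. The Nono-KO values lay close together and below the lowest WT value. The log2 fold change was -0.62 (SE 0.13, adjusted p = 0.000929). Kcnq1, which encodes the pore of the slow delayed rectifier of heart muscle, did not reach the level for description but was tested, with 2, 2 and 5 counts in WT cells and 12, 11 and 17 counts in Nono-KO libraries (log2 fold change 2.17, SE 0.48, adjusted p = 0.00149).

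Kcnd1, a gene of the Kv4 group that carries fast-inactivating A-type current, did not pass the test. It was at 13.4, 11.4 and 16.7 CPM in WT and at 18.1, 17.6 and 16.2 CPM in Nono-KO libraries, and WT replicate 3 lay inside the Nono-KO range. The log2 fold change was 0.32 with a 95% confidence interval from -0.00 to 0.65 (adjusted p = 0.0701). It passed with DESeq2 (0.0431), with RLE size factors in edgeR (0.0386) and without WT replicate 3 (0.0156), the adjusted p ranging from 0.0156 to 0.261 over the alternatives. The other Kv4 genes listed, Kcnd2 and Kcnd3, and the Kv1 gene Kcna4, which supply A-type current in heart muscle, had at most 2 counts in any library.

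**Figure D2:**
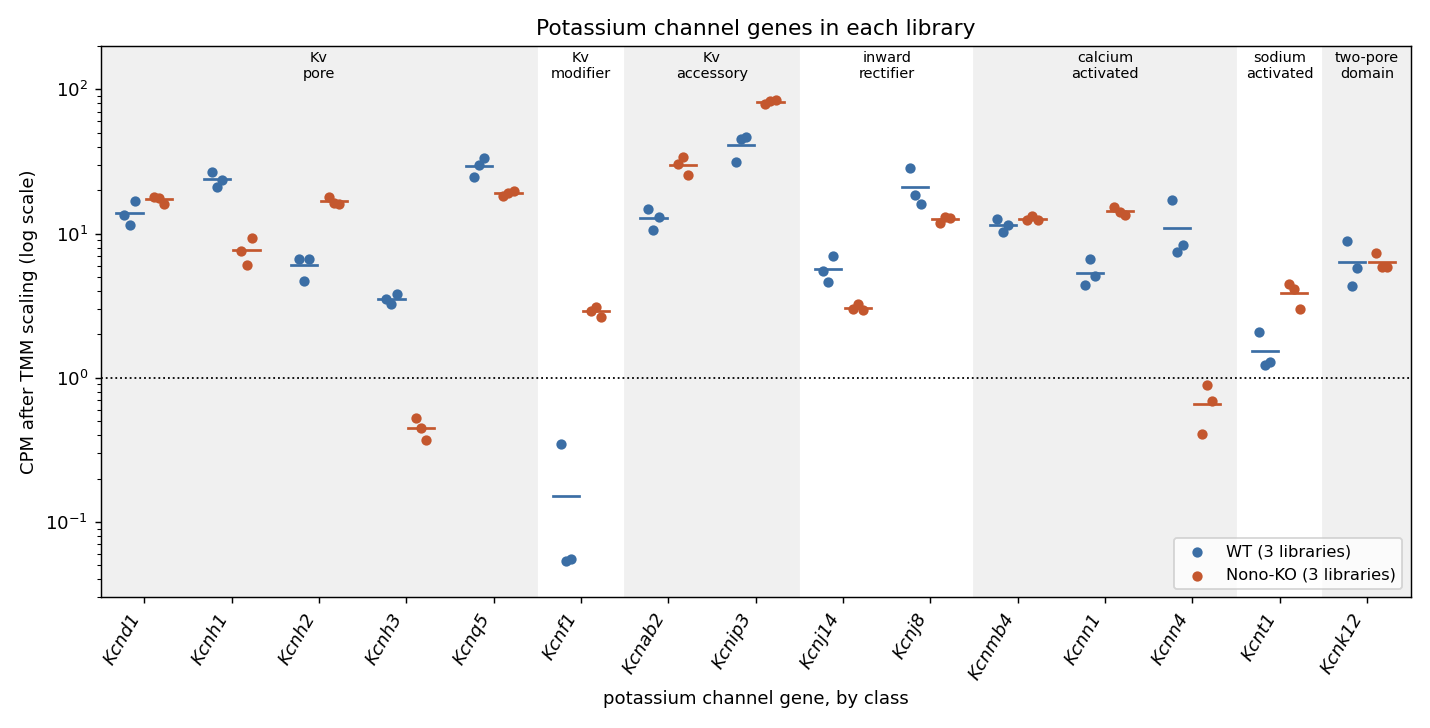
CPM of 15 of the 16 potassium channel genes on a log axis, ordered by channel class, with each WT (blue) and Nono-KO (orange) library as a point, group means as short lines and 1 CPM as a dotted line. The groups are apart for 12 of these genes, for example Kcnh2 with 4.71 to 6.72 CPM in WT and 16.2 to 18.0 CPM in Nono-KO libraries, and overlap for Kcnd1, Kcnmb4 and Kcnk12.

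Some Kv subunits form no channel of their own and change how others gate. Kcnf1 encodes such a silent subunit, which assembles with pore-forming Kv subunits, and it was 1 of 6 modifier rows and the only one of them described. The rise of Kcnf1 was fixed by the level rule, which it met through the Nono-KO libraries alone. It had 7, 1 and 1 counts in WT replicates and 50, 56 and 50 counts in Nono-KO libraries. The WT libraries were near the floor of 3 counts, and WT replicate 1 held most of their reads. The ratio of group totals, scaled to library size, was 18.2, with a 95% interval of 9.37 to 40.6 that covers counting error only, and the fitted log2 fold change was 4.14 (SE 0.45, adjusted p = 7.55e-06) and 5.56 without WT replicate 1.

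Of 9 rows for accessory subunits, 2 were described and both were higher. With 34.2% of all tested genes higher, nothing about accessory subunits is read from 2 genes. Kcnip3 encodes a calcium-binding KChIP protein that joins Kv4 channels and also acts as the transcriptional repressor DREAM. Its values were 31.5, 45.1 and 46.7 CPM in WT and 79.0, 82.7 and 83.8 CPM in Nono-KO libraries. WT replicate 1 was the lowest library, and the groups were well apart. Kcnip3 rose from 41.1 ± 8.35 to 81.8 ± 2.49 CPM (SD, n = 3 each), with a log2 fold change of 1.00 (SE 0.13, adjusted p = 3.58e-05). Kcnab2, which encodes the beta subunit that binds Kv1 channels in the cytoplasm, was at 14.8, 10.6 and 13.1 CPM in WT and at 30.4, 34.0 and 25.5 CPM in Nono-KO libraries. Both groups varied, but the lowest Nono-KO library was above every WT library. Kcnab2 rose by 1.22 on the log2 scale (SE 0.15, adjusted p = 1.97e-05). Nphp4, which overlaps Kcnab2 in the RefSeq annotation, also rose, by 0.78 (SE 0.10, adjusted p = 3.33e-05), and no source used here gives the strand setting behind the counts, so that reads shared by such a pair cannot be told apart.

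Promoter sequence from RefSeq was at hand for 9 of the 16 genes, as windows of 300 bases that run from 250 bases before the transcript start to 50 after it. They come from the assembly GRCr8, which is another build than those named for the counts. The windows are shown for the gene with the largest rise, for the Kv gene with the lowest adjusted p among those present in every library of both groups, and for the accessory subunit whose protein also binds DNA, and capitals mark matches to the motifs below. Kcnf1 is on the minus strand (chr6:45693657-45693956), Kcnh1 on the plus strand (chr13:106252966-106253265) and Kcnip3 on the minus strand (chr3:135195361-135195660).
Kcnf1: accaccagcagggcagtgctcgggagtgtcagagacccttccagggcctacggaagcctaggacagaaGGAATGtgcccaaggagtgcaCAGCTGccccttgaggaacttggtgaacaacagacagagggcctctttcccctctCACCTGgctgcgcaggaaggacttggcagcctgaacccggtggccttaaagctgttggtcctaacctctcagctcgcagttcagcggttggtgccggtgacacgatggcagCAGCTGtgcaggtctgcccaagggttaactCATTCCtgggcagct
Kcnh1: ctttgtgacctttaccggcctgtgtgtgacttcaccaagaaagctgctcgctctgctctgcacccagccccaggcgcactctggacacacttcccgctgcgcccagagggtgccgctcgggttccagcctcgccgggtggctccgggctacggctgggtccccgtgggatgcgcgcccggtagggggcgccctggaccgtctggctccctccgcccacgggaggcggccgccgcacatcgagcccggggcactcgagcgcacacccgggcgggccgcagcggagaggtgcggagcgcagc
Kcnip3: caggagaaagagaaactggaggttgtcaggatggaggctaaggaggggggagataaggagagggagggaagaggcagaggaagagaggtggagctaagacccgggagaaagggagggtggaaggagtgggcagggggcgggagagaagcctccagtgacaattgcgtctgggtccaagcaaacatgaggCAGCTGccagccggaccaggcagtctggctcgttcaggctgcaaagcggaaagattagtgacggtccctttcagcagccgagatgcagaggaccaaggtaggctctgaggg

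The windows were searched on both strands for the TEAD motif GGAATG, the E-boxes CAGCTG and CACCTG that myogenic factors and their repressors bind, the AP-1 motif TGANTCA, and the MEF2 and CArG motifs of muscle promoters. The Kcnf1 window held GGAATG at positions 69 and 286, CAGCTG at positions 90 and 256 and CACCTG at position 145, counted from 1 at the 5′ end of the printed strand, with no overlap between matches. The Kcnip3 window held CAGCTG at position 190, and none of these letters was in the Kcnh1 window. Over the 9 genes, GGAATG was found for Kcnf1 and Kcnt1, CAGCTG for Kcnf1, Kcnip3 and Kcnq5, and CACCTG for Kcnf1 and Kcnt1, while AP-1, MEF2 and CArG motifs were found for none. Kcnt1 had 2 windows, with CACCTG in 1 and GGAATG in the other. Over the 33469 windows of the whole table, GGAATG was in 14.2%, CAGCTG in 15.1%, CACCTG in 18.8%, the AP-1 motif in 7.33%, the MEF2 motif in 0.565% and the CArG motif in 1.64%. Over the 10534 windows of tested genes the shares were 11.4%, 15.7%, 16.6%, 4.91%, 0.342% and 1.45%, in the same order. G and C made up 72.7% of the Kcnh1 window, 59.7% of the Kcnf1 window and 59.0% of the Kcnip3 window, against a median of 51.7% over all windows.

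Both described inward rectifiers of the 7 with a row were lower in Nono-KO cells. Kcnj8 encodes the pore of the ATP-sensitive channel of vascular and other smooth muscle. It was at 28.4, 18.4 and 16.0 CPM in WT and at 11.8, 13.0 and 12.8 CPM in Nono-KO libraries. WT replicate 1 was far above its group, and the groups still did not overlap. Kcnj8 fell by 0.74 on the log2 scale (SE 0.19, adjusted p = 0.00405), and by 0.47 without WT replicate 1 (adjusted p = 0.00334, within a range of 0.00082 to 0.0225 over the alternatives). Abcc9, named after its values were seen, encodes the sulfonylurea receptor that completes this channel and lies next to Kcnj8 in the genome. It was at 69.6, 41.6 and 39.1 CPM in WT and 26.6, 20.7 and 20.2 CPM in Nono-KO libraries, again with WT replicate 1 the highest, and its log2 fold change was -1.16 (SE 0.21, adjusted p = 0.000493). Both parts of the channel were lower in Nono-KO cells at the RNA level.

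Kcnj14, which encodes a strongly rectifying Kir2 channel known from motor neurons, was at 5.52, 4.60 and 7.01 CPM in WT and at 2.98, 3.23 and 2.97 CPM in Nono-KO libraries. The highest Nono-KO value was below the lowest WT value. Kcnj14 fell by 0.90 (SE 0.21, adjusted p = 0.00197). Kcnj4, another Kir2 gene just under the level for description, had 22, 15 and 15 counts in WT replicates and 1, 10 and 4 counts in Nono-KO libraries (log2 fold change -1.69, adjusted p = 0.0106).

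The calcium-activated class had 5 rows and 3 described genes, of which Kcnn1 was higher, Kcnn4 was lower and Kcnmb4 did not pass. The fall of Kcnn4 was fixed by the level rule, which it met through the WT libraries alone. Kcnn4, which encodes the intermediate-conductance channel of proliferating and migrating cells, had 343, 139 and 149 counts in WT replicates and 7, 16 and 13 counts in Nono-KO libraries, or 10.9 ± 5.33 and 0.663 ± 0.242 CPM. It was under 1 CPM in every Nono-KO library, and WT replicate 1 was well above the other WT libraries. The fitted log2 fold change was -4.03 (SE 0.40, adjusted p = 4.48e-06), which is 16.3-fold lower, and -3.55 without WT replicate 1. Of all tested genes, 0.299% had a log2 fold change as low or lower.

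Kcnn1, which encodes a small-conductance channel gated by calmodulin, was at 4.38, 6.63 and 5.06 CPM in WT and at 15.4, 14.2 and 13.5 CPM in Nono-KO libraries. The groups were far apart for their spread. Kcnn1 rose by 1.42 on the log2 scale (SE 0.17, adjusted p = 1.63e-05). Kcnn3, a further small-conductance gene, was too low to be tested, with 9, 12 and 9 counts in WT cells and 8, 6 and 3 in Nono-KO libraries. Kcnmb4, the accessory beta subunit of the large-conductance channel, was at 12.6, 10.2 and 11.5 CPM in WT and at 12.5, 13.2 and 12.4 CPM in Nono-KO libraries, and the groups overlapped. Its log2 fold change of 0.15 did not pass (95% confidence interval -0.14 to 0.44, adjusted p = 0.313).

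**Figure D3:**
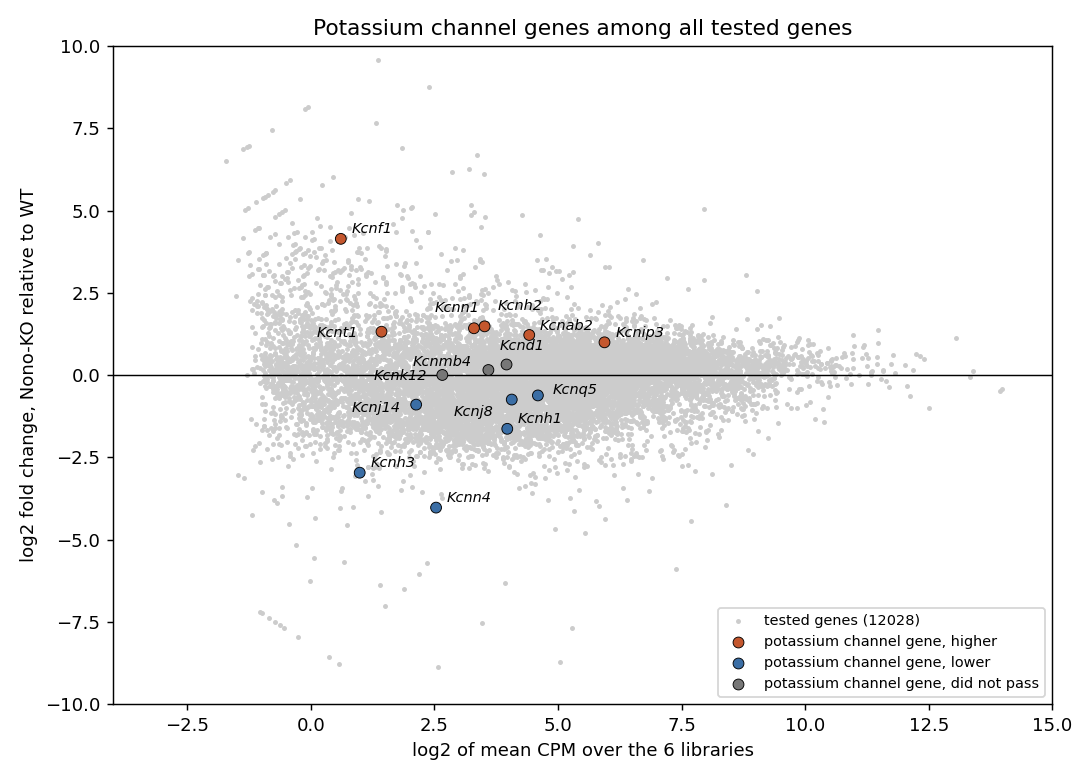
Log2 fold change, Nono-KO over WT, against the log2 of the mean CPM of the 6 libraries for the 12028 genes tested (grey), with 15 of the 16 potassium channel genes in colour. The channel genes spread over both sides of 0. Kcnn4 at -4.03 and Kcnf1 at 4.14, the ends, met the level rule through 1 group alone and had to differ. The genes at 1 CPM or more in every library ran from -1.63 for Kcnh1 to 1.48 for Kcnh2.

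Kcnt1, the 1 sodium-activated gene with a row, encodes the Slack channel. It was at 2.09, 1.23 and 1.28 CPM in WT and at 4.45, 4.12 and 3.02 CPM in Nono-KO libraries, and the groups did not overlap. Kcnt1 rose by 1.32 (SE 0.27, adjusted p = 0.000941).

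Of 10 rows for K2P leak channels, Kcnk12 alone was described. It was at 8.86, 4.33 and 5.73 CPM in WT and at 7.31, 5.90 and 5.82 CPM in Nono-KO libraries, and the WT values reached beyond the Nono-KO values on both sides. Kcnk12 did not pass, with a log2 fold change of 0.00, a 95% confidence interval from -0.53 to 0.54 and an adjusted p of 0.990. A change of Kcnk12 in either direction within that interval is not excluded. The sign of its log2 fold change moved with the scaling and with the libraries included.

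The 43 Kcn rows that were not described held few reads: 28 had at most 5 counts in any library, 3 reached 6 to 9 counts and 12 reached at least 10 in 1 library or more. Of these rows, 5 passed the filter for testing. In Nono-KO cells 2 were higher, Kcnq1 among them, and Kcnj4 was lower, as given above, while Kcne2, a small accessory subunit of ERG channels, with 13, 11 and 16 counts in WT cells and 14, 18 and 14 in Nono-KO libraries, and Kcnh6, a further ERG-type gene, with 26, 11 and 9 and 18, 9 and 15 counts, did not pass. Among the untested rows, Kcna7, a muscle Kv1 gene, had 3, 0 and 0 counts in WT replicates and 14, 6 and 7 in Nono-KO libraries. Kcnk4, a mechanically gated K2P gene, had 2, 1 and 4 and then 11, 11 and 10 counts. Neither reached 1 CPM in any library. Kcnj9, an inward rectifier of neurons, had 7, 4 and 3 and then 7, 12 and 12 counts, and Kcnk7, a silent K2P gene, had 7, 4 and 10 and then 5, 7 and 14. The accessory gene Kcnab3 had 12, 9 and 5 counts in WT replicates and 3, 2 and 5 in Nono-KO libraries, and the K2P gene Kcnk5 had 10, 0 and 1 and then 0 in each. No direction is given for these low rows, which the filter left untested.

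**Figure D4:**
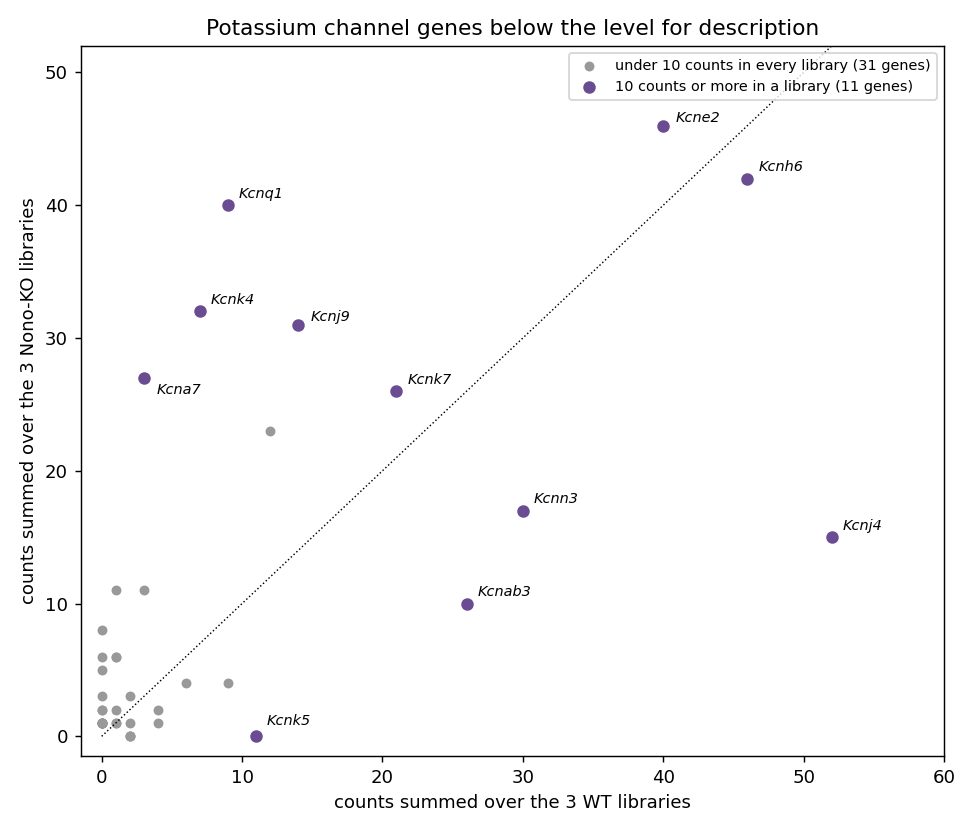
Counts of 42 potassium channel genes below the level for description, summed over the 3 WT libraries on the horizontal axis and over the 3 Nono-KO libraries on the vertical axis, with a dotted line of equal sums. The 11 genes with 10 counts or more in a library are named, and Kcnq1 lies at 9 and 40 counts, Kcnj4 at 52 and 15.

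Accessory and scaffold genes outside the Kcn symbols were taken from a list of 20, of which 10 were tested: 5 were higher, 4 were lower and 1 did not pass, with a median log2 fold change of 0.06. Of all tested genes 34.2% were higher and 38.1% lower, with a median of -0.05. Dlg1, a scaffold that clusters Kv and Kir channels at the membrane, was at 71.2, 110 and 102 CPM in WT and at 29.9, 29.8 and 31.5 CPM in Nono-KO libraries and fell by 1.63 (adjusted p = 1.6e-06). Akap9, which anchors protein kinase A to the slow delayed rectifier, fell by 1.40, from 7.83 ± 2.97 to 2.98 ± 0.400 CPM (adjusted p = 0.00059). Calm3, which encodes calmodulin, the calcium sensor of the Kcnn channels, rose by 1.20, from 143 ± 7.51 to 329 ± 5.29 CPM (adjusted p = 2.29e-07), and Calm2, named after its values were seen, rose by 0.38 (adjusted p = 0.0143).

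Potassium pumps and cotransporters were taken from a list of 30, of which 14 were tested: 6 were higher, 5 were lower and 3 did not pass, with a median log2 fold change of 0.16. The 11 genes called stand beside 72.2% of all tested genes, 34.2% higher and 38.1% lower. The sodium pump takes up the potassium that the channels let out, and its beta subunit genes Atp1b1 and Atp1b3, named after their values were seen, fell by 0.66 and 0.57. Fxyd1, phospholemman, which regulates the pump in muscle, rose by 1.94, from 0.597, 2.35 and 1.78 CPM to 5.97, 6.12 and 5.98 CPM (adjusted p = 0.000275). The cotransporter gene Slc12a2, which brings potassium in with sodium and chloride, fell by 1.70.

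Sodium, calcium and pacemaker channel genes, the inward-current partners of the potassium channels, were taken from a list of 44, of which 18 were tested: 7 were higher, 6 were lower and 5 did not pass, with a median log2 fold change of 0.35. The 13 genes called are the share seen over all tested genes, 72.2%, with 34.2% higher and 38.1% lower. Cacna1i, a T-type calcium channel gene, was at 38.3, 39.6 and 48.2 CPM in WT and at 4.97, 3.73 and 4.02 CPM in Nono-KO libraries and fell by 3.31 (adjusted p = 2.4e-08). Cacnb1, the calcium channel beta subunit of skeletal muscle, rose by 1.85, from 6.97 ± 0.436 to 25.1 ± 0.402 CPM (adjusted p = 2.02e-07). In each of the 3 lists genes moved in both directions, as among the potassium channel genes.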

How the data were processed

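RNA-seq counts of 3 WT and 3 Nono-KO H9c2 libraries were analysed. The authors deposited raw counts of reads per gene, and the 6 single-library files hold the same values as the table. Per the labels' processing notes, the tools were HTSeq, HISAT2 and Trimmomatic on the build mRatBN7.2, while the study's methods name Bowtie2, the build Rn6 and DESeq2. Which annotation was counted, and whether by strand, cannot be read from the sources used here, where it is not given. ATAC-seq data were not analysed here, nor were 36 further protein-coding Kcn symbols of RefSeq.

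Counts were scaled with TMM, filtered with filterByExpr (12028 genes kept, 4291 not) and tested with edgeR 4.0.16 (glmQLFit, robust, and glmQLFTest) in R 4.3.3, Nono-KO against WT, with Benjamini-Hochberg adjustment over all genes tested. CPM are TMM-scaled. The standard error is the absolute log2 fold change over the square root of F. DESeq2 1.42.0, other scalings, filters, a replicate block and leaving out each library were alternatives. The test was checked on simulated counts. Every Kcn gene at the CPM level, and by counts those with at least 10 counts in 1 library, were named, with the 3 largest changes of each partner list among genes at 5 CPM or more in the higher group. Some genes that this rule or the counts include are not reported here. The members and lists were chosen with earlier results of these data known. A count of 0 allows up to 3 counts, and intervals of counts cover counting error only. No library repeated another, and none was left out of the results. WT replicate 1 stood apart from its group over the whole table. Chi-square per degree of freedom, which grows as 2 libraries differ, was 24.8 and 25.5 for WT replicate 1 against replicates 2 and 3. Between WT replicates 2 and 3 it was 11.8, and between Nono-KO libraries 2.69 to 10.8.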

Additional observations from a re-analysis of the deposited data

How the results depend on the processing

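Over 204 alternatives of single genes, 192 kept direction and side of the threshold, 4 lost the call, 3 gained it and 5 changed sign, and of 135 alternatives of counts of genes 128 stayed within 1.5 times. The gained calls were those of Kcnd1 given above. Kcnk12, which passed under no setting, changed sign with total-count scaling (-0.057) and with no filter on low counts (-0.031), and ranged from -0.21 to 0.33 on the log2 scale when 1 library was left out. The study's thresholds (adjusted p under 0.01, absolute change above 1 in log2) are stricter by construction. With them 5 of the 16 described genes were higher and 3 lower, and among these are the 3 genes that had to differ. Of the 12028 genes tested, 1294 (10.8%) were higher and 2252 (18.7%) lower. In that setting 3 of the 10 accessory and scaffold genes tested were higher and 3 lower. Of the 14 pump, cotransporter and organelle channel genes tested, 1 was higher and 2 were lower. Of the 18 sodium, calcium and pacemaker channel genes tested, 7 were higher and 2 lower. Whether any of these lists differs from all tested genes was not tested. Replicate numbers did not pair the libraries (correlations of deviations 0.06, -0.19 and -0.22 for numbers 1 to 3), and a fit with the replicate number as a block called 7 described genes higher and 6 lower. Total-count scaling, RLE scaling and a level of 2 CPM each left 16 genes for description. A level of 0.5 CPM gave 22, and 1 CPM in all 6 libraries gave 13, without Kcnf1, Kcnh3 and Kcnn4. Scaling moved the median of all genes by 0.05 (RLE) and -0.06 (total counts). Genes with few reads, such as Kcnf1 in WT cells, are limited by depth.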
